A study of Mus musculus with 16 samples.

Results

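The genes described here are 10 immediate early transcription factors and feedback genes measured in mouse liver: Fos, Jun, Junb, Egr1, Ier2, Ier3, Klf6, Myc, Dusp1 and Nfkbia. They were named by symbol, with no measured value in the rule but with earlier results of these data known, and are 10 of the 35275 gene IDs in the deposited table. Each symbol matched 1 row. The livers came from wild-type mice (WT) and from mice lacking Zfp36l1 in the liver only (LKO), and each genotype was fed a control diet or a diet containing ethanol. Each of these 4 groups held 4 libraries of total liver RNA, 16 in all. The promoter or Cre line behind the liver deletion, and the sex, age and strain of the mice, the diet composition and the feeding time, are not given in the sources used here. Within a group the libraries were numbered 1 to 4 in record order. The labels give no pairing by these numbers, and p-values measure the spread between these libraries only. Values are FPKM, fragments scaled to gene length and library size, so levels of different genes are compared per length.

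Immediate early genes are switched on within minutes of a stimulus by factors that already sit in the cell, without new protein being made first. Growth factors, stress kinases and inflammatory cytokines reach them through MAP kinases, SRF, CREB and NF-kB, and in liver they are known to rise after partial hepatectomy and acute injury. Their messenger RNAs are short lived, and in many of them AU-rich stretches of the 3′ untranslated region (UTR) bind proteins of the ZFP36 family, to which ZFP36L1 belongs. Some early genes encode inhibitors of the same pathways: DUSP1 removes phosphate from MAP kinases, and IκBα, the product of Nfkbia, holds NF-kB in the cytoplasm.

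Ethanol-fed livers held more Klf6, Egr1, Ier3 and Jun transcript than control-fed livers when the diets were compared over both genotypes. The calls of Klf6, Egr1 and Ier3 held in every fit tried, whereas that of Jun was lost in 14 of the 16 fits that left out 1 library and in 3 other fits. Klf6 and Ier3 were 3.52 to 5.76 times higher on ethanol in the group means, Egr1 3.85 to 4.9 times and Jun 3.08 to 3.71 times. Fos, Junb, Ier2 and Myc also had higher means on ethanol in both genotypes, without passing the test. The feedback genes Dusp1 and Nfkbia had lower means on ethanol in both genotypes and did not pass either. Several of these values moved with WT ethanol library 2, which stood apart from all others: without it, Fos, Junb, Ier2 and Myc also passed, and the WT difference was 0.05 for Nfkbia and −0.27 for Dusp1 in log2(FPKM + 1). No member was called between LKO and WT on either diet by the same test.

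The AU-rich heptamer TATTTAT, the core of the element that ZFP36 proteins bind, is shown first because the mice lacked a member of that family. It stood in the 3′ UTR of 6 of the 10 members, with 4 copies in Ier3, 3 in Dusp1, 2 each in Fos, Klf6 and Nfkbia and 1 in Jun. No copy was found in the annotated 3′ UTR of Junb, Egr1, Ier2 or Myc. Among the 10523 tested genes with an annotated 3′ UTR, 27.3% held at least 1 copy and 9.11% at least 2, and 5 of the 10 members held at least 2. Among the 6409 tested genes whose 3′ UTR was 442 to 3111 bases long, the range of the members, 29.3% held at least 1. These are counts of letters on the transcript strand, in 1 GENCODE M21 transcript per gene, not measured binding. The following 29-base pieces, 1 from each gene with a copy, have the heptamer in capitals, and in the Ier3 piece the next copy follows in lower case.
Ier3 3′ UTR site: tgtctaattaaTATTTATgtatttatgta
Klf6 3′ UTR site: cacaccggctgTATTTATtatgtaacatt
Jun 3′ UTR site: ttgcttgtgcaTATTTATaatagcgttcg
Fos 3′ UTR site: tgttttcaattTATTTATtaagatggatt
Dusp1 3′ UTR site: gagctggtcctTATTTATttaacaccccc
Nfkbia 3′ UTR site: tctaagatgtaTATTTATtaaacagattt
On mm10 (GRCm38) these pieces lie, by strand, at Ier3 chr17:35822481-35822509 (plus), Klf6 chr13:5868943-5868971 (plus), Jun chr4:95049079-95049107 (minus), Fos chr12:85477103-85477131 (plus), Dusp1 chr17:26506159-26506187 (minus) and Nfkbia chr12:55489419-55489447 (minus). The heptamer was present both in members that passed the ethanol test (Ier3, Klf6, Jun) and in members whose means were lower on ethanol (Dusp1, Nfkbia). Egr1 passed the test without a copy.

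Promoters, taken as 250 bases before to 50 bases after the annotated start, were searched on both strands for 4 sites known from early genes. The sites were the cAMP response element TGACGTCA, the AP-1 site TGANTCA, the CArG box bound by SRF, and the NF-kB site. Of the 10 members, 7 matched the RefSeq promoters used here, and Egr1, Ier2 and Myc did not. The NF-kB site was found in Fos, Ier3 and Nfkbia, against 5.12% of the 11111 promoters of tested genes. The cAMP response element was found in Dusp1, against 3.01% of those promoters. No exact AP-1 site or CArG box was in the 7 windows, where 5.27% and 1.2% of promoters held one. The matches did not overlap each other. The 4 promoters with a match are shown from 5′ to 3′ with the match in capitals, since they belong to Ier3, which passed the ethanol test, to Fos, which did not, and to the 2 feedback inhibitors.
Ier3 promoter: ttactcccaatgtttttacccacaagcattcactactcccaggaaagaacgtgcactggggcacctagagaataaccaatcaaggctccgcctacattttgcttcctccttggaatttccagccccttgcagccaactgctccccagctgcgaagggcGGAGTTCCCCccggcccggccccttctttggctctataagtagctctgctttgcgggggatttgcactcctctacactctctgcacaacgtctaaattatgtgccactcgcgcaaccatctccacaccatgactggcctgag
Fos promoter: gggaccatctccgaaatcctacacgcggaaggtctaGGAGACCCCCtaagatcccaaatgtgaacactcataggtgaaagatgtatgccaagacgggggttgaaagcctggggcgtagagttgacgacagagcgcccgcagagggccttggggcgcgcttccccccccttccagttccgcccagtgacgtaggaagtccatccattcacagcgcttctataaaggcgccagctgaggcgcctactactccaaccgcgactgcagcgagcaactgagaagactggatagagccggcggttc
Nfkbia promoter: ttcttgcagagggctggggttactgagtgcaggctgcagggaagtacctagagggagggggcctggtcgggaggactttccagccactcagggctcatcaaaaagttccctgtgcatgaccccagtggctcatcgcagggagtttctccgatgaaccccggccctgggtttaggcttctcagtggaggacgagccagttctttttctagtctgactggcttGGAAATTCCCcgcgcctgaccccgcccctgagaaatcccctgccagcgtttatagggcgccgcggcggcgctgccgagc
Dusp1 promoter: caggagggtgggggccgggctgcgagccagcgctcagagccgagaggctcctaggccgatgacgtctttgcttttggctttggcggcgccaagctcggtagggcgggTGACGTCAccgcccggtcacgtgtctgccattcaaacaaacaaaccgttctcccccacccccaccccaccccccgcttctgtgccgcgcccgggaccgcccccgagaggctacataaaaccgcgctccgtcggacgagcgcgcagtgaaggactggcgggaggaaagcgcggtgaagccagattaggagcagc
They are from RefSeq on GRCm38.p6, by strand at Ier3 chr17:35821463-35821762 (plus), Fos chr12:85473640-85473939 (plus), Nfkbia chr12:55492598-55492897 (minus) and Dusp1 chr17:26508423-26508722 (minus). Counted from the start, the match began at −92 in Ier3, −214 in Fos, −29 in Nfkbia and −143 in Dusp1.

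Total reads per library ranged from 9890475 to 24768569. WT ethanol library 2 was the shallowest, and the other 15 libraries held at least 19069903. It also stood apart in content: across genes, it correlated with the rest at a Spearman rho of 0.664 to 0.721, against 0.858 to 0.985 for all other pairs, and mitochondrial transcripts made up 22.5% of its reads, against 3.64 to 6.97%. All 10 members had their lowest WT ethanol value in this library, so results are given with and without it. The main axis of variation inside the groups, with 40% of that variance, separated libraries 1 and 2 from libraries 3 and 4 in each of them. No batch is named in the labels. Zfp36l1 measured 9.3 to 25.5 FPKM in the WT libraries and 0.572 to 1.76 in the LKO libraries. Hepatocyte markers summed to 42200 to 73400 FPKM per library, the highest of the cell types examined.

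On the control diet the feedback genes were the most abundant members per length. Mean FPKM in WT control livers was 29.04 ± 5.83 for Nfkbia and 26.4 ± 13.1 for Dusp1 (SD, n = 4 here and for every group mean), which did not differ beyond their spread. Junb at 12.6 ± 2.52 and Ier2 at 12.03 ± 5.26 came next, again within their spread of each other. Jun, Egr1, Klf6, Myc, Ier3 and Fos lay between 4.38 and 0.832 FPKM, in that order. Fos rested on few reads, 0 to 319 per library. Ier3 also held few on the control diet, 23 to 45 per WT library and 14 to 40 per LKO library.

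**Figure D1:**
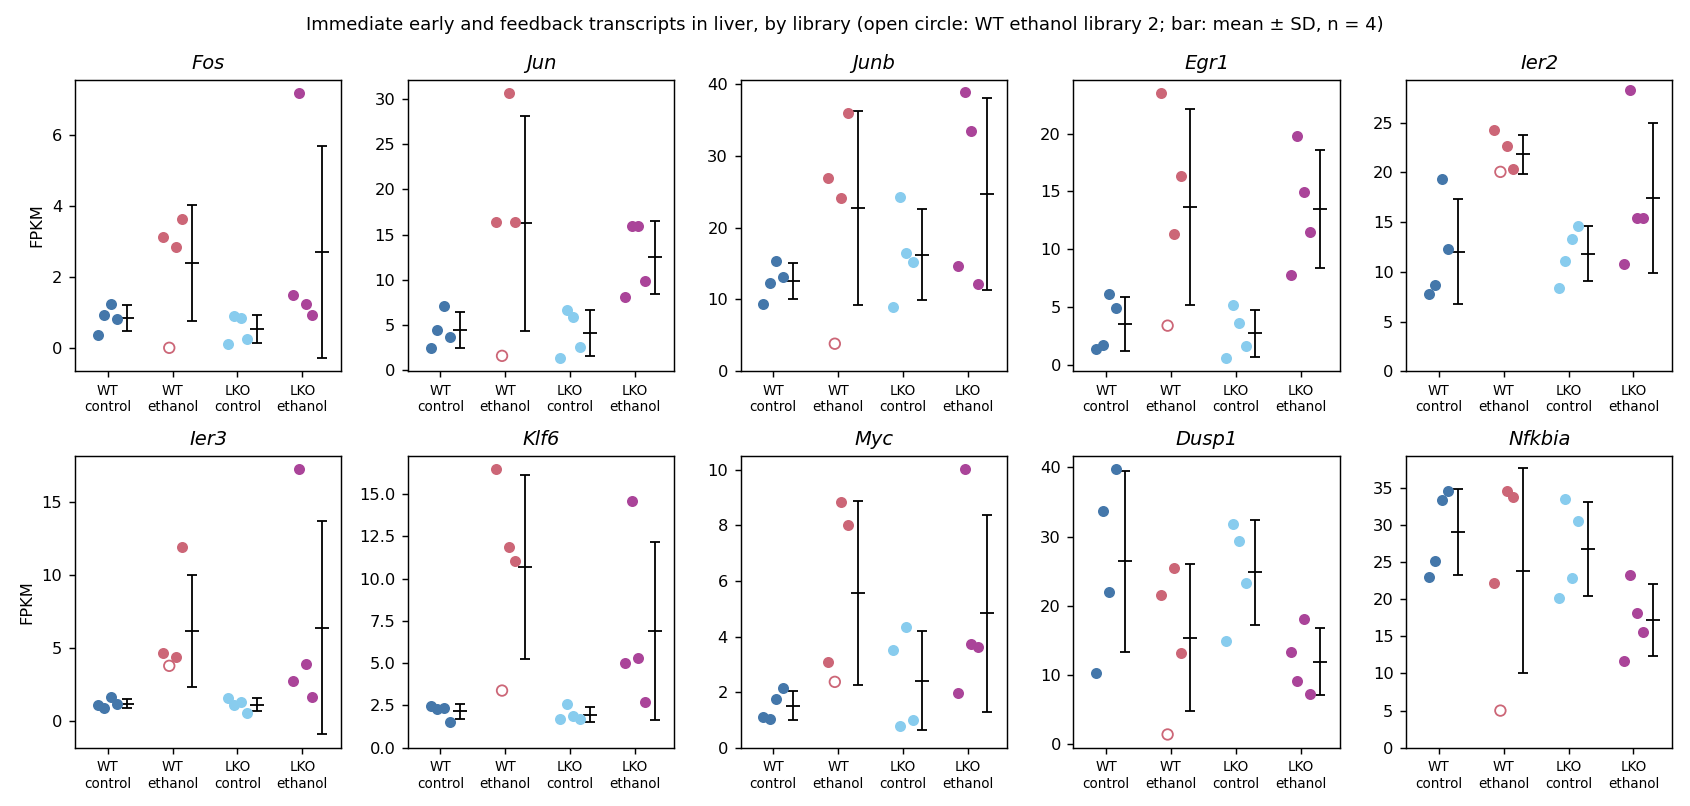
FPKM of the 10 genes in each of the 16 libraries (points), with the mean and SD of each group of 4 (bars) and WT ethanol library 2 as an open circle. The ethanol libraries of both genotypes lie above the control libraries for Klf6, whereas for Dusp1 and Nfkbia the ethanol means lie lower.

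Klf6 encodes a zinc finger transcription factor that is induced early in liver injury and in activated stellate cells. Klf6 (ENSMUSG00000000078, chromosome 13, 5861482 to 5870394, plus strand) measured 2.46, 2.28, 2.35 and 1.51 FPKM in WT control libraries 1 to 4 and 16.5, 3.38, 11.9 and 11.1 in WT ethanol libraries 1 to 4. In LKO the control libraries held 1.699, 2.61, 1.85 and 1.68 FPKM and the ethanol libraries 5.03, 14.6, 5.29 and 2.71. The 8 ethanol libraries lay above all 8 control libraries, which no other member showed and which held for 1.19% of the 11298 genes tested. Leaving out WT ethanol library 2, Jun and Egr1 showed it too, as did 2.69% of all genes. LKO ethanol library 4 lay just above the highest control value, and WT ethanol library 2 was the next lowest on ethanol.

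The diets were compared with limma on log2(FPKM + 1), a scale that understates the changes of low genes, with Benjamini-Hochberg adjustment of p-values for the 11298 genes that reached 1 FPKM in at least 4 libraries. All 10 members passed that filter. Averaged over the genotypes, Klf6 was higher on ethanol by 1.48 on that scale (standard error, SE, 0.28, limma adjusted p = 0.004002). It rose by 1.74 in WT (SE 0.40, limma adjusted p = 0.023), and differed by 1.22 in LKO (SE 0.40, limma adjusted p = 0.261). In WT it was the 1 member of 10 that was called, where 2.58% of all genes tested were called higher, and 6 of the 10 had an unadjusted p under 0.05, as did 19.7% of all genes. The WT call depended on single libraries. It was lost without WT control library 1, 2 or 4 or WT ethanol library 3 or 4, with limma adjusted p up to 0.0814, and was also lost without the filter on low values. The averaged calls of Klf6, Egr1 and Ier3 held in every fit tried, with limma adjusted p up to 0.0340.

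Egr1 encodes a zinc finger factor downstream of SRF and the MAP kinases. Egr1 (ENSMUSG00000038418, chromosome 18, 34859823 to 34864984, plus strand) measured 1.36, 1.72, 6.15 and 4.92 FPKM in the WT control libraries and 23.5, 3.405, 11.3 and 16.3 in the WT ethanol libraries. LKO livers held 0.598, 5.15, 3.67 and 1.62 FPKM on the control diet, against 7.76, 19.8, 14.99 and 11.5 on ethanol. The LKO diets did not overlap, and in WT the only overlap came from ethanol library 2. Averaged over genotypes, Egr1 was higher on ethanol by 1.83 on the log2 scale (SE 0.37, limma adjusted p = 0.00577), the largest difference of the 10. Within a genotype it did not pass, at 1.601 in WT (limma adjusted p = 0.0938) and 2.06 in LKO (limma adjusted p = 0.102). It passed in both when WT ethanol library 2 was left out, at 2.096 (limma adjusted p = 0.0135) and 2.06 (limma adjusted p = 0.0194).

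Ier3 encodes a small protein that takes part in survival and MAP kinase signalling. Ier3 (ENSMUSG00000003541, chromosome 17, 35821684 to 35822923, plus strand) measured 1.07, 0.852, 1.63 and 1.103 FPKM in the WT control libraries and 4.63, 3.75, 4.37 and 11.9 in the WT ethanol libraries, and the diets did not overlap. The LKO control libraries measured 1.55, 1.07, 1.27 and 0.517 FPKM and the LKO ethanol libraries 2.72, 17.2, 3.86 and 1.61, again without overlap. A single library was far above the rest of its group in each case, library 4 in WT and library 2 in LKO. Averaged over genotypes Ier3 was higher on ethanol by 1.502 (SE 0.32, limma adjusted p = 0.00796). It differed by 1.61 in WT (limma adjusted p = 0.0528) and by 1.39 in LKO (limma adjusted p = 0.245). In WT it passed when ethanol library 2 was left out, at 1.77 (limma adjusted p = 0.03398).

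Jun, Junb and Fos encode subunits of AP-1, the dimer that binds the TGANTCA site. Jun (ENSMUSG00000052684, chromosome 4, 95049034 to 95052222, minus strand) measured 2.42, 4.38, 7.07 and 3.66 FPKM in the WT control libraries and 16.4, 1.52, 30.7 and 16.4 in the WT ethanol libraries. In LKO the control libraries held 1.27, 6.62, 5.79 and 2.48 FPKM and the ethanol libraries 8.09, 15.97, 15.9 and 9.88, and these did not overlap. In WT, ethanol library 2 fell below every control library and the other 3 lay above all of them. Averaged over genotypes, Jun was higher on ethanol by 1.41 (SE 0.42, limma adjusted p = 0.0484). This call was the weakest of the 4. It was lost in 14 of the 16 fits that left out 1 library, all except those without WT control library 3 or WT ethanol library 2, and it was also lost with a pseudocount of 0.1, with voom and without a filter, where the limma adjusted p was 0.130. It was stronger when WT ethanol library 2 was left out, at 1.79 averaged (limma adjusted p = 0.000649), 2.05 in WT (limma adjusted p = 0.00775) and 1.53 in LKO (limma adjusted p = 0.0347). An antisense gene, Junos, shares 232 exonic bases with Jun, and without known strand use in the counting their reads cannot be told apart.

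Fos (ENSMUSG00000021250, chromosome 12, 85473890 to 85477273, plus strand) measured 0.348, 0.935, 1.23 and 0.819 FPKM in the WT control libraries and 3.12, 0, 2.85 and 3.62 in the WT ethanol libraries. Library 2 of the latter held 0 Fos reads, which allows up to 0.144 FPKM by a limit of 3 reads for counting error only. LKO livers held 0.104, 0.888, 0.839 and 0.258 FPKM on the control diet, against 1.48, 7.17, 1.23 and 0.919 on ethanol, with ethanol library 2 far above the other 3. The LKO diets did not overlap, although the lowest ethanol value lay just above the highest control value. The averaged difference was 0.87 (SE 0.33, limma adjusted p = 0.116), and without WT ethanol library 2 it was 1.13 (limma adjusted p = 0.00718).

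Junb (ENSMUSG00000052837, chromosome 8, 84974484 to 84978718, minus strand) measured 9.32, 12.3, 15.4 and 13.2 FPKM in the WT control libraries and 26.9, 3.85, 24.1 and 35.95 in the WT ethanol libraries. The LKO control libraries measured 8.91, 24.3, 16.5 and 15.1 FPKM and the LKO ethanol libraries 14.6, 38.8, 33.4 and 12.1. The LKO ethanol libraries split, with 2 above all LKO controls and 2 below 3 of them. The averaged difference of 0.49 was the smallest of the 10 in size (SE 0.37, 95% interval −0.29 to 1.28, limma adjusted p = 0.493). With WT ethanol library 2 left out it was 0.82 (limma adjusted p = 0.032). Junb shares 173 exonic bases with Prdx2 on the other strand, and their reads cannot be told apart there without known strand use.

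Ier2 encodes a nuclear protein induced with the other early genes, and Myc encodes the transcription factor that drives growth and ribosome production. Ier2 (ENSMUSG00000053560, chromosome 8, 84661331 to 84662852, minus strand) measured 7.79, 8.68, 19.4 and 12.3 FPKM in the WT control libraries and 24.2, 20.1, 22.6 and 20.4 in the WT ethanol libraries, which lay close together and above all controls. In LKO the control libraries held 8.37, 11.1, 13.3 and 14.6 FPKM and the ethanol libraries 10.8, 28.2, 15.4 and 15.4, with 1 ethanol library below 3 of the controls. The averaged difference of 0.68 did not pass (SE 0.21, limma adjusted p = 0.0633). It passed with a term for the split between libraries 1 and 2 and libraries 3 and 4 described above (limma adjusted p = 0.0386), and without WT ethanol library 2 it was 0.696 (limma adjusted p = 0.029). That library was close to the rest of its group for Ier2.

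Myc (ENSMUSG00000022346, chromosome 15, 61985391 to 61990374, plus strand) measured 1.12, 1.03, 1.75 and 2.15 FPKM in the WT control libraries and 3.08, 2.37, 8.82 and 8.001 in the WT ethanol libraries, without overlap. LKO livers held 3.53, 0.783, 4.34 and 1.01 FPKM on the control diet, against 1.95, 10.02, 3.73 and 3.63 on ethanol, and the diets overlapped, with control libraries 1 and 3 in the ethanol range. The averaged difference was 1.01 (SE 0.31, limma adjusted p = 0.0579). It passed with the term for that split (limma adjusted p = 0.0431), and without WT ethanol library 2 it was 1.14 (limma adjusted p = 0.0167).

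Dusp1 encodes a phosphatase of the MAP kinases p38 and JNK. Dusp1 (ENSMUSG00000024190, chromosome 17, 26505590 to 26562128, minus strand) measured 10.2, 33.7, 21.97 and 39.7 FPKM in the WT control libraries and 21.6, 1.399, 25.4 and 13.2 in the WT ethanol libraries. The LKO control libraries measured 14.8, 31.8, 29.3 and 23.3 FPKM and the LKO ethanol libraries 13.3, 9.08, 18.1 and 7.19. The diets overlapped in both genotypes, and the spread within WT control livers was wide. The averaged difference was −1.03 (SE 0.42, 95% interval −1.93 to −0.14, limma adjusted p = 0.154), and without WT ethanol library 2 it was −0.65 (limma adjusted p = 0.114). In WT the difference was −1.04 with all libraries and −0.27 without ethanol library 2, and in LKO it was −1.02 (limma adjusted p = 0.684).

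Nfkbia (ENSMUSG00000021025, chromosome 12, 55489410 to 55492647, minus strand) measured 22.9, 25.2, 33.4 and 34.6 FPKM in the WT control libraries and 22.2, 5.001, 34.5 and 33.8 in the WT ethanol libraries. In LKO the control libraries held 20.2, 33.6, 22.8 and 30.6 FPKM and the ethanol libraries 11.7, 23.3, 18.1 and 15.6. Apart from library 2, the WT ethanol libraries lay in or next to the control range, and the LKO diets overlapped in 1 ethanol library. The averaged difference was −0.58 (SE 0.31, limma adjusted p = 0.297). In WT the direction rested on library 2: the difference was −0.54 with it and 0.05 without it.

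Over the 10 members, 4 were called higher and 0 lower on ethanol in the averaged comparison, in which 4.59% of all genes tested were called higher, and 8 had an unadjusted p under 0.05, Dusp1 among them in the lower direction, as did 21.6% of all genes. The members' median difference was 0.94, against 0.02 over all genes tested. Leaving out WT ethanol library 2, 8 were called higher, all except Dusp1 and Nfkbia, where 14.8% of all genes tested were called higher. The members' median was then 1.14 and that of all genes 0.11. With voom, limma's method for reads, run on the whole reads recovered from the FPKM steps, 3 members were called, with 4.37% of all genes higher, and 7 had an unadjusted p under 0.05, as did 20.9% of all genes. Array weights, which weight each library by its residual spread, called the same 8 averaged over genotypes (28% of all genes higher) and in WT (31.3%), and 2 in LKO (4.59%). These weights rested the WT ethanol mean mostly on library 3, with a weight of 4.998 against 0.0418 to 1.06 for the other 3. A model with a term for the split between libraries 1 and 2 and libraries 3 and 4, which was read from the data, called 6 members averaged over genotypes on all 16 libraries, adding Ier2 and Myc to the 4 (7.11% of all genes higher), 1 in WT (4.2%) and 0 in LKO (0.443%). That model, fitted without WT ethanol library 2, called 8 averaged (23.3%), 8 in WT (15%) and 3 in LKO (6.53%).

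**Figure D2:**
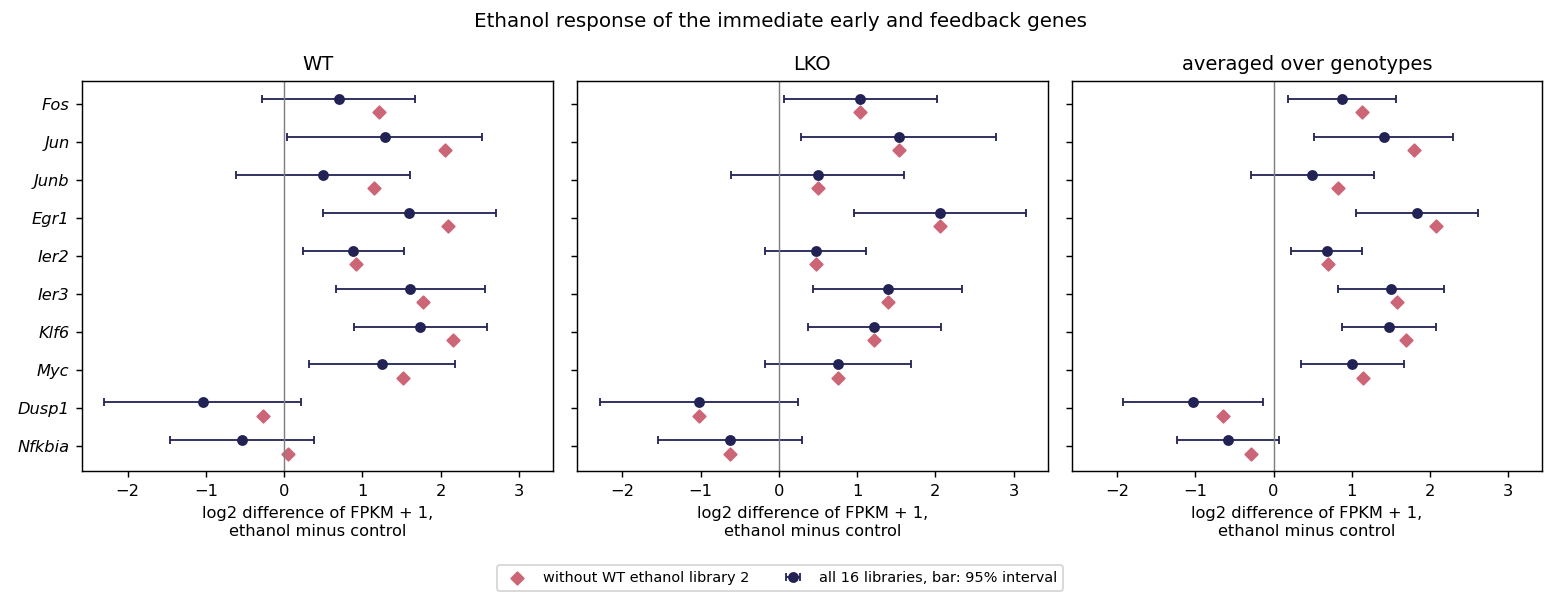
Difference in log2(FPKM + 1) between ethanol and control livers for each gene in WT, in LKO and averaged over genotypes; circles are fits to all 16 libraries with 95% intervals, diamonds are fits without WT ethanol library 2. In the averaged panel the 8 regulators lie between 0.49 and 1.83, and Dusp1 and Nfkbia lie below 0.

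In LKO, limma called 0 of 10 members, where 0.168% of all genes tested were called higher, although 5 had an unadjusted p under 0.05, as did 9.19% of all genes. Voom also called 0 (0.221% of all genes higher), with 4 under 0.05 unadjusted (9.42% of all genes), and in WT it called Klf6 alone (2.04% of all genes higher). Ethanol and control values did not overlap for 5 members in LKO (Fos, Jun, Egr1, Ier3 and Klf6), with 8.15% of all genes higher in this way, and for 4 in WT (Ier2, Ier3, Klf6 and Myc), with 5.62%. When WT ethanol library 2 was left out, limma called Egr1, Jun and Klf6 in LKO, with 2.22% of all genes tested called higher, although no LKO library had been left out; the groups share 1 estimate of the spread. In WT it then called 5 members (Klf6, Jun, Egr1, Ier3 and Myc), with 7.23% of all genes called higher. The 8 members other than Dusp1 and Nfkbia then lay above all WT controls, as did 15.6% of all genes.

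Within the sides of the split between libraries, the direction was the same in nearly all cases for the members other than Nfkbia. On the side of libraries 3 and 4, the 8 members other than Dusp1 and Nfkbia were all higher on ethanol, by 0.45 to 2.10 in WT and by 0.14 to 2.01 in LKO (2 libraries against 2, no test). On the side of libraries 1 and 2, all 8 were higher in LKO, by 0.65 to 2.11, and 7 of 8 in WT, where the lowest was −0.0090. With WT ethanol library 2 left out, which leaves 1 ethanol library there, all 8 were higher by 0.97 to 3.27. Dusp1 differed by −0.66 and −1.43 on these sides in WT and by −1.12 and −0.92 in LKO, and its WT value with libraries 1 and 2 became 0.19 without ethanol library 2. Nfkbia differed by 0.0058 and −1.09 on the same sides in WT and by −0.624 and −0.625 in LKO. Its WT value with libraries 1 and 2 became −0.113 without ethanol library 2.

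The genotypes were compared to see whether the members differ when Zfp36l1 is missing. On the control diet the differences between LKO and WT ran from −0.29 for Egr1 to 0.30 for Myc, against a median of −0.10 over all genes. Limma and voom each called 0 of 10, with none under 0.05 unadjusted (3.45% of all genes by limma), and limma called 0.00885% of all genes tested in either direction. With median-of-ratios scaling, which moved the median of all genes to 0.00, 7 of 10 members were positive instead of 4. On the ethanol diet limma and voom each called 0 of 10, none with an unadjusted p under 0.05 (11.9% of all genes by limma), and of all genes tested 0.0797% were called by limma and 0.0443% by voom. The largest difference was in Klf6, at 10.7 ± 5.44 FPKM in WT and 6.91 ± 5.27 in LKO, a log2 difference of −0.61 (95% interval −1.46 to 0.24, limma adjusted p = 0.575). The intervals of the other 9 also held 0 and reached from −1.23 to 1.40 in this fit to all libraries, each interval taken for its gene alone.

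The sign of the genotype difference on ethanol turned on single libraries for several members. With all libraries 5 of 10 members were lower in LKO. Without LKO ethanol library 2, 8 were lower, and 3 (Ier2, Ier3 and Klf6) had an unadjusted p under 0.05, as did 13.8% of all genes, with 0 called. Without LKO ethanol library 3, 7 were lower, and 7 were higher without WT ethanol library 3 and 8 without WT ethanol library 4. Without WT ethanol library 2 all 10 were lower, with a median of −0.46 against −0.23 over all genes. None was then called, with 0.221% of all genes tested called, and 2 had an unadjusted p under 0.05, as did 17.1% of all genes: Klf6 at −1.03 (limma adjusted p = 0.179) and Nfkbia at −0.79 (limma adjusted p = 0.172). Jun alone did not overlap, with 8.09, 15.97, 15.9 and 9.88 FPKM in LKO below 16.4, 30.7 and 16.4 in WT, as did 5.89% of all genes. With array weights, which rested the WT ethanol mean mostly on library 3, 3 members were called lower in LKO on ethanol (Klf6 at −1.11, Nfkbia at −1.03 and Myc at −1.03), where 27.9% of all genes tested were called lower. No member was called in the interaction, the LKO response minus the WT response: it ran from −0.52 for Klf6 to 0.46 for Egr1, limma and voom each called 0 of 10 with none under 0.05 unadjusted (3.2% of all genes by limma), and limma called 0% of all genes. With all libraries 6 of the 10 were negative. Without WT ethanol library 2 all 10 were, from −0.94 for Klf6 to −0.035 for Egr1, with a median of −0.59 against −0.12 over all genes, and limma called 0 of 10, with none under 0.05 unadjusted (4.42% of all genes) and 0% of all genes called. With array weights all 10 were negative and 0 were called, and Klf6, Nfkbia and Myc had an unadjusted p under 0.05, as did 22.5% of all genes.

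**Figure D3:**
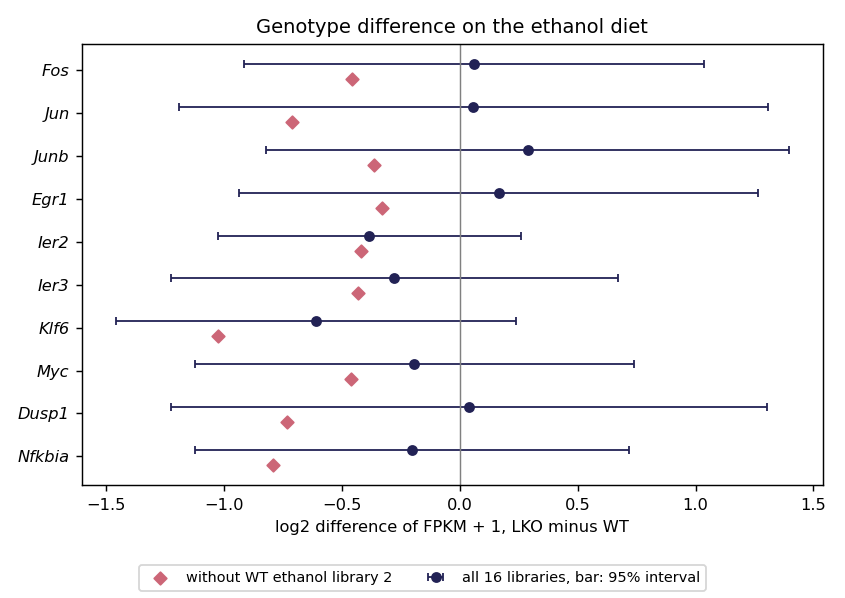
Difference in log2(FPKM + 1) between LKO and WT livers on the ethanol diet for each gene; circles are fits to all 16 libraries with 95% intervals, diamonds are fits without WT ethanol library 2. All 10 intervals include 0, and all 10 diamonds lie below 0.

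Single libraries held the extreme values of many members. WT ethanol library 2 had the lowest value of its group for 10 of 10 members, and LKO ethanol library 2 the highest for 9 of 10, all except Dusp1. These libraries were also the lowest for 66% and the highest for 43.4% of all genes tested in their groups. The highest WT ethanol values were split over libraries 1, 3 and 4 (3, 4 and 3 members), and the lowest LKO ethanol values between libraries 1 and 4 (5 each). On the control diet, library 1 of each genotype was lowest for the same 7 members (Fos, Jun, Junb, Egr1, Ier2, Dusp1 and Nfkbia), and LKO control library 2 was highest for 7. Library 1 was lowest for 25.4% of all genes in WT control livers and 38.4% in LKO control livers, and LKO control library 2 was highest for 23.6%. The mean z-score of the members (each value's distance from the gene's mean over the 16 libraries, in SD) was 1.29 in LKO ethanol library 2 and −1.07 in WT ethanol library 2. Relative spread was widest on ethanol for Ier3 in LKO, with a coefficient of variation of 115%, and smallest for Ier2 in WT on ethanol, at 9.08%.

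**Figure D4:**
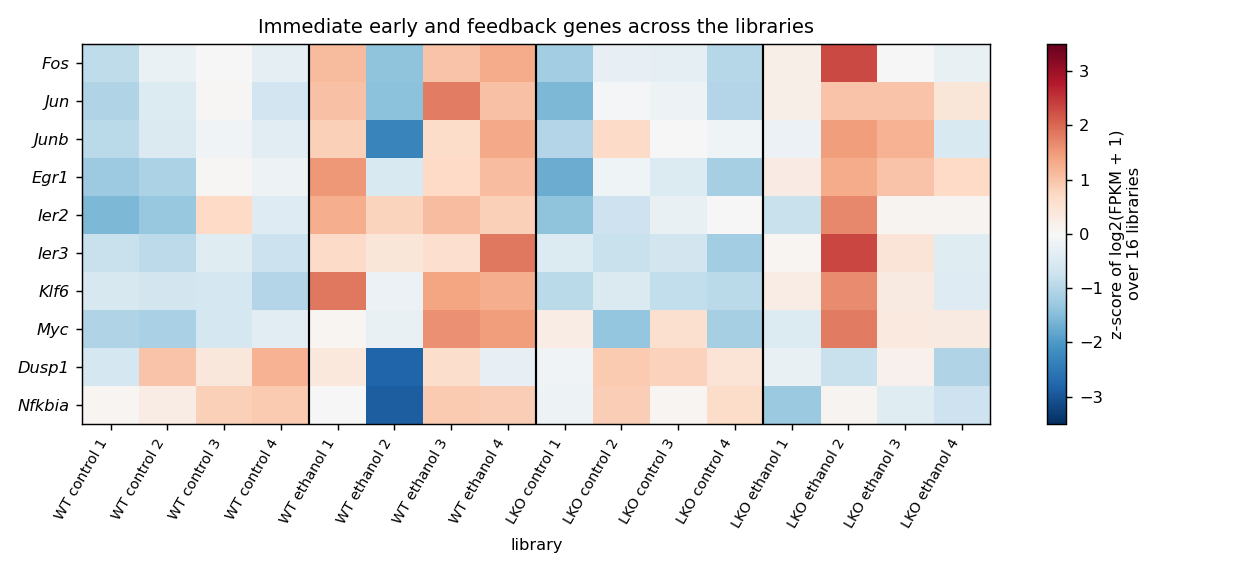
Each gene's z-score of log2(FPKM + 1) over the 16 libraries (rows are genes, columns are libraries, red above and blue below the gene's mean). LKO ethanol library 2, with a mean z-score of 1.29, holds the highest value of its group for 9 genes, although its Nfkbia value lies close to that gene's mean. WT ethanol library 2 is darkest blue for Dusp1 and Nfkbia.

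Among protein-coding genes outside the 10, the 5 whose pattern over the 16 libraries was most like the members' mean z-score were Tmem200b, Gnb1, Clns1a, Col4a1 and Ets2, with Spearman correlations of 0.95, 0.932, 0.924, 0.918 and 0.912. These describe 16 libraries that also share the features of WT ethanol library 2. Tmem200b measured 1.57 ± 0.549, 6.77 ± 5.21, 1.34 ± 0.476 and 3.58 ± 2.39 FPKM in WT control, WT ethanol, LKO control and LKO ethanol livers.

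Of the other AP-1 genes and partners, 8 of 10 listed genes were tested, and 3 rose on ethanol averaged over genotypes (Jund, Atf3 and Fosl2), with a median of 0.63 over the 8. For this and the lists below, 4.59% of all genes were called higher in that comparison and 21.6% had an unadjusted p under 0.05. Jund, a further Jun family subunit, measured 13.97 ± 5.01 FPKM in WT control and 61.05 ± 21.6 in WT ethanol livers, and 12.5 ± 2.91 and 33.4 ± 12.1 in LKO. Its averaged difference was 1.67 (limma adjusted p = 0.000602). Atf3, a stress-induced partner of Jun proteins, differed by 2.15 (limma adjusted p = 0.001898), from 0.693 ± 0.323 to 9.75 ± 6.37 FPKM in WT and from 0.647 ± 0.281 to 6.68 ± 6.39 in LKO. Of the 8, 5 were called higher when WT ethanol library 2 was left out, against 14.8% of all genes tested, the share to set beside each list below in the averaged comparison without that library. Jund and Atf3 were also called in WT, and in LKO limma and voom each called 0 of the 8, with 3 under 0.05 unadjusted by either.

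Of 22 other early regulators, 18 were tested and 4 were called higher on the averaged comparison (Nr4a1, Rhob, Gadd45b and Btg2), with a median of 0.35. Nr4a1, an orphan nuclear receptor, measured 0.672 ± 0.308 FPKM in WT control and 5.57 ± 6.601 in WT ethanol livers, and 0.373 ± 0.05298 and 1.63 ± 0.987 in LKO, with an averaged difference of 1.21 (limma adjusted p = 0.0201). Rhob differed by 0.900 (limma adjusted p = 0.0207). Without WT ethanol library 2, 8 were called higher and 1 lower. The gene lower was Zfp36, named after its values were seen, which encodes a relative of ZFP36L1, with 48.2 ± 13.5 and 26.4 ± 19.9 FPKM in WT and 50.4 ± 21.2 and 22.1 ± 7.103 in LKO (difference −1.25 with all libraries, limma adjusted p = 0.115, and −0.79 without that library, limma adjusted p = 0.0472).

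Among inhibitors that feed back on MAP kinases, as DUSP1 does, 11 of 13 were tested and 4 rose on ethanol in the averaged comparison, all of them phosphatases (Dusp8, Dusp10, Dusp4 and Dusp5). Dusp8 measured 0.145 ± 0.157 FPKM in WT control and 3.35 ± 1.73 in WT ethanol livers, and 0.146 ± 0.0895 and 2.38 ± 1.298 in LKO. With all 16 libraries it was the only gene of the 7 pathway lists called in LKO, by 1.46 (limma adjusted p = 0.0469), where 0.168% of all genes tested were called higher. Without WT ethanol library 2, Atf3, Jund, Dusp6, Dusp10, Bcl3 and Mapkapk2 were also called higher there, as were 2.22% of all genes. Some of them are named after their values were seen. The averaged difference of Dusp8 was 1.65 (limma adjusted p = 0.000531). Dusp4 differed by 1.24 (limma adjusted p = 0.00297) and Dusp10 by 0.92 (limma adjusted p = 0.00285). The median of the 11 was 0.42, against −1.03 for Dusp1. Without WT ethanol library 2 that median was 0.58, against −0.65 for Dusp1, and 9 of the 11 were called higher.

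Of the NF-kB subunits and their inhibitors, 10 of 11 were tested and limma and voom each called 0 in the averaged comparison, with 5 under 0.05 unadjusted by limma and a median of 0.38. The smallest p-values were those of the subunits Rela, at 0.62 (limma adjusted p = 0.0684), and Relb, at 0.75 (limma adjusted p = 0.0689). Without WT ethanol library 2, 4 of the 10 were called higher and 1 lower (Cyld, a deubiquitinase that restrains NF-kB, named after its values were seen). Of the Myc partners, 8 of 9 were tested and limma and voom each called 0, with 0 under 0.05 unadjusted by limma and a median of −0.07, and the smallest p-values were those of Mxd4, a repressor that pairs with Max, at −0.31 (limma adjusted p = 0.367), and of Mga, at 0.18. Mlx and Max, 2 of the Myc partners, were called higher when WT ethanol library 2 was left out, and are named after their values were seen.

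Of 15 upstream kinases and factors, all tested, Mapkapk2 alone was called in the averaged comparison. Mapkapk2 encodes the kinase that acts below p38 and phosphorylates ZFP36 proteins. It measured 17.7 ± 1.81 and 44.9 ± 9.58 FPKM in WT livers without and with ethanol, and 14.8 ± 1.45 and 31.7 ± 10.9 in LKO, an averaged difference of 1.13 (limma adjusted p = 0.00151). Leaving out WT ethanol library 2, Elk3 was also called higher and Egfr lower, both named after their values were seen. Of 8 secreted early response genes, 5 were tested. Ccn2, a secreted matrix protein, was called in WT, at 0.74 (limma adjusted p = 0.0404), and differed by −0.27 in LKO (limma adjusted p = 0.784). Of the 75 genes tested in these 7 lists, limma and voom each called 0 between genotypes on either diet and in the interaction. By limma, 5 had an unadjusted p under 0.05 on the control diet, 11 on the ethanol diet and 3 in the interaction, where 3.45%, 11.9% and 3.2% of all genes did.

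The members are expressed in many liver cells, and in bulk RNA fewer cells of a type and less RNA per cell cannot be told apart. The summed FPKM of 6 neutrophil markers ran from 1.49 to 6.59 in WT control, 3.7 to 12.5 in WT ethanol, 2.62 to 5.79 in LKO control and 3.39 to 21.3 in LKO ethanol livers, and Ly6g was at 0 in all 8 control libraries. Of the 3 of these markers tested, Retnlg was called higher on ethanol. The sum of 6 Kupffer cell and macrophage markers ran from 88.1 to 270 in WT control, 93.2 to 289 in WT ethanol, 86.1 to 306 in LKO control and 51.9 to 298 in LKO ethanol livers. LKO ethanol library 2, highest in its group for 9 members, was also the highest of that group for 6 of the 8 marker sums, all except those of hepatocytes and B cells. WT ethanol library 2, lowest for all 10 members, had the highest neutrophil sum of its group and the lowest macrophage sum. WT control library 1, lowest for 7 members, had the highest neutrophil and macrophage sums of its group. Limma and voom each called 0 of the 6 macrophage markers in the averaged comparison, with 2 under 0.05 unadjusted by limma. Only 1 of the 6 was positive there, with a median of −0.49. In WT limma called Marco higher and voom called 0, with 2 of the 6 positive and a median of −0.125. Of the 6 sinusoidal endothelial markers, Lyve1 was called higher, at 1.75 (limma adjusted p = 0.0208), while 4 of the 6 were negative, with a median of −0.39. Des was called of 6 stellate cell markers, with a median of 0.26. Of the 2 cholangiocyte markers tested of 5, Sox9 was called higher, at 0.79, and Spp1 differed by −0.36 (limma adjusted p = 0.531). Limma and voom each called 0 for hepatocytes (of 6, 1 under 0.05 unadjusted by limma) and for T and NK cells (of 3 tested, 0 under 0.05). Without WT ethanol library 2, Pecam1 (endothelial), Pdgfrb (stellate) and Marco were also called higher, and Spp1 and Ttr (hepatocyte) lower, named after their values were seen. No B cell marker of 4 passed the filter. The part of these cells in the members' differences was not tested.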

How the data were processed

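Total liver RNA was sequenced in 16 libraries, 4 for each genotype and diet, grouped by the treatment label. The authors deposited 1 table of FPKM values for 35275 Ensembl gene IDs. The submitters' processing notes name fastp, STAR 2.6.1, HTSeq, DESeq2 and mm10, without roles. The annotation, the gene lengths used and the strand setting are not given in the sources used here. Symbols, positions and 3′ UTRs came from GENCODE M21, and promoters from RefSeq (GRCm38.p6).

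The members and the gene lists were chosen with earlier results of these data known. Genes with at least 1 FPKM in at least 4 libraries were kept (11298). A group-means model was fitted to log2(FPKM + 1) with limma 3.58.1 in R 4.3.3 (eBayes with trend), two-sided, with Benjamini-Hochberg adjustment over the genes kept. Called means an adjusted p under 0.05. There were 6 contrasts: diet in WT, in LKO and averaged, genotype on each diet, and the interaction. Whole reads were recovered from the steps of the deposited FPKM values. Of the values in the 20520 genes above 0 in at least 4 libraries, 100.0% lay within 0.1 of a whole read, and these reads entered voom. Totals of 9890475 to 24768569 reads set the precision of low genes, such as Fos.

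Alternatives were a pseudocount of 0.1, no filter, median-of-ratios scaling, voom, array weights, a term separating libraries 1 and 2 from 3 and 4, that term without WT ethanol library 2, and leaving out each library. The fit was tested on simulated reads of 11298 genes (11121 kept) for diet in WT, with 200 genes given a 4-fold change. It called 75.9% of the changed genes that were kept, and unchanged genes made up 5.03% of its calls. The simulation used the same spread setting for every gene, with no library that stood apart and no split between libraries. These rates therefore need not hold for the real libraries. Of each list, at most the 3 called genes with the smallest adjusted p in a contrast, or the 2 with the smallest p where none was called, were named. Btg2 and Dusp5 were named beyond this rule, after their values were seen. A result on the secreted early response genes is not reported here.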

Additional observations from a re-analysis of the deposited data

Results flagged for a closer look

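A single library lay far above the rest of its group in 3 of the 40 sets of 4 values (10 genes in 4 groups), where the gap to the nearest library, as a share of the group's range, was above Dixon's 95% critical value. Chance gives this in about 1 in 20 groups. Fos measured 7.17 FPKM in LKO ethanol library 2, and the next value of that group was 1.48, a gap of 0.91 of the range. Ier3 measured 17.2 FPKM in the same library, and the next value was 3.86, a gap of 0.856 of the range. Ier3 measured 11.9 FPKM in WT ethanol library 4, and the next value was 4.63, a gap of 0.892 of the range. Without LKO ethanol library 2 or WT ethanol library 4, the averaged ethanol call of Ier3 held.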

How the results depend on the processing

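No paired analysis was run, because the labels name no pairs. The library titles each hold a different number. Several control and ethanol libraries of the same genotype, at the same place in record order, carry consecutive numbers. No label says what such libraries share, so whether they were paired is not known. The term for the split between libraries 1 and 2 and libraries 3 and 4 is read from the data and is no pairing. Shares of all genes called higher stand in brackets. The count of members called in WT (1, 2.58%) was 2 with a pseudocount of 0.1 (2.24%), 0 without a filter (0.751%), 2 with median-of-ratios scaling (3.35%), 8 with array weights (31.3%), 8 with that term and without WT ethanol library 2 (15%), and leaving out 1 library gave 0 to 5 (0.788% to 7.23%). In LKO (0, 0.168%) it was 2 with array weights (4.59%) and 3 with that term and without that library (6.53%), and 0 to 3 leaving out 1 (0.0266% to 2.22%). On ethanol between genotypes (0) it was 3 lower with array weights (27.9% lower). Averaged (4, 4.59%), it was 3 with a pseudocount of 0.1 (4.43%), 3 without a filter (1.64%), 3 with voom (4.37%), 5 with median-of-ratios scaling (5.86%), 6 with that term (7.11%), 8 with array weights (28%), 8 with that term and without that library (23.3%), and 3 to 8 leaving out 1 (2.87% to 14.8%).

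With array weights, the WT differences of Dusp1 and Nfkbia became 0.000333 and 0.267, that of Nfkbia being 0.00475 with that term and without library 2. On ethanol between genotypes, the values with array weights and with that term and without that library were −0.628 and −0.488 for Fos, −1.13 and −0.658 for Jun, −0.325 and −0.351 for Junb, −0.0369 and −0.280 for Egr1, and −0.860 and −0.698 for Dusp1. The interaction of Egr1 was −0.0233 with array weights. Leaving out 1 library, the WT difference of Nfkbia ran from −0.809 to 0.0467, and the control-diet genotype difference of Egr1 from −0.592 to 0.0565. On ethanol the genotype difference ran from −0.456 to 0.284 for Fos, −0.711 to 0.507 for Jun, −0.365 to 0.612 for Junb, −0.329 to 0.496 for Egr1, −0.861 to 0.0744 for Ier3, −0.556 to 0.0769 for Myc, −0.734 to 0.420 for Dusp1 and −0.790 to 0.0648 for Nfkbia. The interaction of Egr1 ran from −0.0353 to 0.790. The cause was not tested. Depth limits low genes such as Fos.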
